A study of Mus musculus with 6 samples.

Results

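The 9 genes described here encode liver enzymes that break down amino acids: Tat, Hpd and Fah of the tyrosine pathway, Tdo2 of tryptophan, Hal of histidine, Sds of serine, Aass of lysine, and the aminotransferases Got1 and Gpt. They were chosen by gene symbol from a deposited table of 45777 genes, and all 9 were found there and were among the 16197 genes expressed highly enough to test. RNA of whole liver from C57BL/6 mice aged 10 weeks was sequenced in 2 genotypes, to ask what the loss of Pak4, a p21-activated serine/threonine kinase, from hepatocytes does to liver gene expression. The Pak4_KO group held 3 libraries of Alb-Cre; Pak4 flox/flox mice, in which the albumin promoter drives Cre recombinase and so directs the deletion to hepatocytes. The WT group held 3 libraries of Pak4 flox/flox mice without Alb-Cre, so both groups carried floxed Pak4 on both alleles and differed in the Cre transgene as well as in Pak4. The labels name neither sex nor feeding state, and do not say that each library came from its own animal, so the tests reflect only how far libraries of 1 genotype spread, which may be technical.

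The liver is the main site at which dietary amino acids are stripped of nitrogen. Aminotransferases move the amino group to 2-oxoglutarate, the remaining carbon skeletons feed glucose and ketone body synthesis, and the nitrogen goes to urea. Several of these enzymes are classic targets of hormones: Tat and Tdo2 are induced by glucocorticoids, and Tat, Sds and the aminotransferases by glucagon, fasting or a high-protein diet. Hal and Sds are found mostly in hepatocytes near the portal vein.

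Libraries held 42632491 to 48044181 reads in Pak4_KO and 39603272 to 52521400 reads in WT. Pak4 itself stood at 1.37, 2.24 and 1.90 CPM (reads scaled to the library total, with TMM factors) in Pak4_KO, against 5.93, 7.15 and 6.44 CPM in WT (log2 fold change -1.82, edgeR adjusted p = 0.0169). The 9 hepatocyte markers measured summed to 94374 to 110759 CPM in Pak4_KO and 88724 to 112736 CPM in WT, so the labelled tissue carried its defining transcripts in each library, with the groups overlapping. Markers of other cells were low beside these. The 8 neutrophil markers summed to 23.6 to 29.6 CPM in Pak4_KO and 36.2 to 62.5 CPM in WT, and the 8 Kupffer cell and macrophage markers to 259 to 346 CPM in Pak4_KO and 324 to 412 CPM in WT. The 8 cholangiocyte markers summed to 41.0 to 67.0 CPM in Pak4_KO and 31.3 to 49.7 CPM in WT. The 8 endothelial markers summed to 239 to 340.5 CPM in Pak4_KO and 232 to 294 CPM in WT, and the 8 stellate cell markers to 193 to 369 CPM in Pak4_KO and 201 to 307 CPM in WT. T, NK and B cell markers summed to 1.66 to 2.19 CPM in Pak4_KO and 2.25 to 4.29 CPM in WT, and erythroid markers to 205 to 319.6 CPM in Pak4_KO and 206 to 400.4 CPM in WT. Of the 6 exocrine pancreas markers, 5 (Prss2, Cpa1, Pnlip, Amy2b and Ctrb1) had 0 reads in each library, and the list summed to 2.98 to 9.29 CPM in Pak4_KO and 10.2 to 11.5 CPM in WT. By edgeR 0 markers were called. At an unadjusted p under 0.05 there were 5 of 7 tested neutrophil (71.4%) and 2 of 8 Kupffer cell markers (25%), all lower in Pak4_KO. So was 1 of 1 tested exocrine pancreas marker. Higher in Pak4_KO were 3 of 8 stellate cell (37.5%), 1 of 7 cholangiocyte (14.3%) and 1 of 8 endothelial markers (12.5%). Over all tested genes the share was 8.21%. The 7 neutrophil, 8 Kupffer cell and 4 tested T, NK and B cell markers all had negative log2 fold changes. Negative values were also found for 1 of 8 stellate cell, 1 of 7 cholangiocyte, 0 of 8 endothelial, 3 of 5 erythroid and 6 of 9 hepatocyte markers. DESeq2's Wald test called S100a9, Cxcr2, Lrat and Vwf. The part of cell make-up in the values below was not tested. In whole tissue, fewer cells of a type and less RNA per cell cannot be told apart.

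None of the 9 enzymes passed the test between genotypes. Aass, which starts lysine breakdown, and Got1, the cytosolic aspartate aminotransferase, were the enzymes whose values stood highest in Pak4_KO relative to WT, 1.60-fold and 1.37-fold, with each Pak4_KO library above each WT library. Hpd, the second enzyme of tyrosine breakdown, stood 1.31-fold lower in Pak4_KO, with each Pak4_KO library below each WT library. Fah and Gpt also had Pak4_KO libraries below all WT libraries, by a narrow margin, while Tat, Sds, Tdo2 and Hal overlapped between the genotypes. The edgeR quasi-likelihood test called 0 of 9 members at a Benjamini-Hochberg adjusted p under 0.05 over all genes, where it called 0.469% of the 16197 tested genes. At an unadjusted p under 0.05 it had 3 of 9 members (Aass, Got1 and Hpd), against 8.21% of all tested genes. DESeq2's Wald test called 1 member, Aass (adjusted p = 0.00827), and 2.06% of all genes with an adjusted p.

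Levels of Aass and Got1 varied together over the libraries (Pearson correlation of log2 CPM 0.976). Both were picked as highest in Pak4_KO, so this follows in part from the choice. Hpd and Gpt also varied together (0.952). Promoter sequences are shown for the pair that stood highest in Pak4_KO relative to WT, Aass and Got1, and for the enzyme that stood lowest, Hpd. Each is the 250 bases before the RefSeq transcription start (GRCm38.p6), read 5′ to 3′ on the strand of the gene, and capitals mark matches to the motifs named after them.
Aass, chr6:23132987-23133236, minus strand: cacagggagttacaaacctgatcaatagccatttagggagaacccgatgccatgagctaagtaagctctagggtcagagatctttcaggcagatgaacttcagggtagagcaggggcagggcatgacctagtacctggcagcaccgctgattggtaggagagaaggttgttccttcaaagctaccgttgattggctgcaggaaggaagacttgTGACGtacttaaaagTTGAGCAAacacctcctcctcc
Got1, chr19:43524606-43524855, minus strand: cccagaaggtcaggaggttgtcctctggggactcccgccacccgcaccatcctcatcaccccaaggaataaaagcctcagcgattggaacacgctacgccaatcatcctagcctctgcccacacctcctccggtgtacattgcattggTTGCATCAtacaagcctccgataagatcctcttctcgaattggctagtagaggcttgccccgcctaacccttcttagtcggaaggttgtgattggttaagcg
Hpd, chr5:123182724-123182973, minus strand: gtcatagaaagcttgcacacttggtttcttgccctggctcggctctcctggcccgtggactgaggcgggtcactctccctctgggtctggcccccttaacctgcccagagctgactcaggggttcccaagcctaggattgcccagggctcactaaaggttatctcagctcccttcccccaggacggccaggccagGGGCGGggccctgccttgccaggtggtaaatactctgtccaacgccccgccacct

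The motifs were searched on both strands, N standing for any base. The Aass window held the core of the cAMP response element, TGACG, starting 37 bases before the transcription start, and a C/EBP motif, TTGCNNAA, on the opposite strand at 22 bases before it. The Got1 window held the amino acid response element TGATGNAA, which C/EBP and ATF proteins can bind together, on the opposite strand at 102 bases before the start. The Hpd window held the GC box GGGCGG at 55 bases before the start. Of 32851 RefSeq promoter windows of this length, 17.8% held TGACG, 9.56% held TTGCNNAA, 3.45% held TGATGNAA and 32.7% held GGGCGG. The other motifs searched were the glucocorticoid receptor motif TGTTCT (16.1% of windows), the full cAMP response element TGACGTCA (1.55%), the forkhead motif TGTTTAC (3.17%), and the TATA box TATAAA (12.4%). None of these lay in the 3 windows shown. The TGACG core is part of TGACGTCA. None of the motifs searched lay in both the Aass and the Got1 window, and other motifs were not looked for.

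Levels of different genes were compared in TPM, the authors' values scaled by transcript length. In Pak4_KO liver, Tat was the highest at 2143 ± 453 TPM, then Tdo2 at 1649 ± 204, Hpd at 1155 ± 137, Aass at 821 ± 112, Got1 at 784 ± 57.0, Sds at 708 ± 135, Fah at 294 ± 21.0, Gpt at 151 ± 10.3 and Hal at 87.8 ± 23.8 TPM (SD, n = 3). In WT liver, Tat stood at 1784 ± 318 TPM, Tdo2 at 1548 ± 408, Hpd at 1426 ± 188, Sds at 624 ± 76.7, Got1 at 544 ± 42.8, Aass at 487 ± 37.7, Fah at 325 ± 25.6, Gpt at 175 ± 25.1 and Hal at 96.0 ± 12.1 TPM (SD, n = 3). The order of the first 3 and of the last 3 enzymes was the same in both genotypes, while Aass took rank 4 in Pak4_KO and rank 6 in WT. Among neighbours in these orders, library ranges overlapped between Tat and Tdo2 and between Aass, Got1 and Sds in Pak4_KO, and among Tat, Tdo2 and Hpd, between Sds and Got1, and between Got1 and Aass in WT. The 9 enzymes together made up 0.818%, 0.804% and 0.715% of TPM in the Pak4_KO libraries, against 0.668%, 0.674% and 0.760% in the WT libraries, which overlap.

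**Figure D1:**
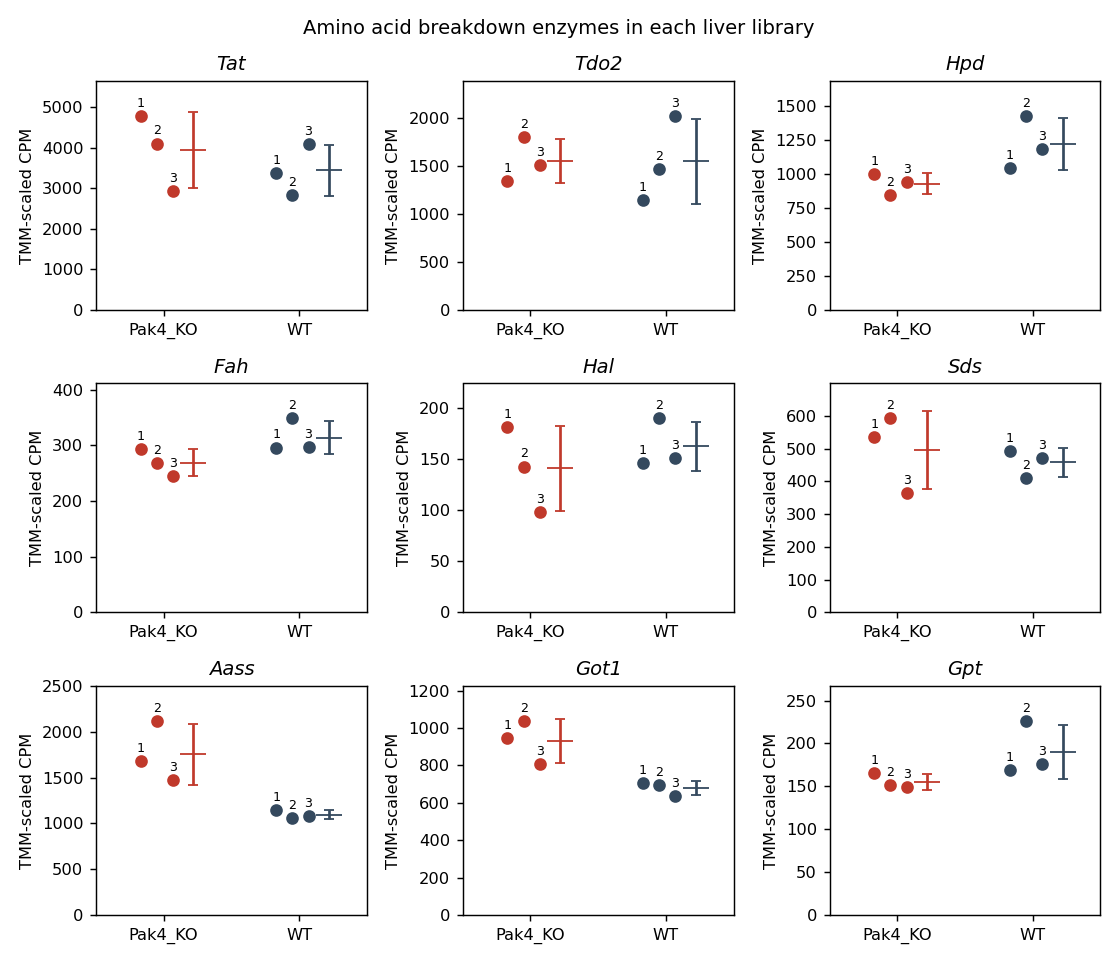
TMM-scaled CPM of each enzyme in the 3 Pak4_KO and the 3 WT libraries, with replicate numbers beside the points and the mean ± SD at the right of each group. Aass and Got1 lie higher in all Pak4_KO libraries than in any WT library, Hpd, Fah and Gpt lie lower, and Tat, Tdo2, Hal and Sds overlap.

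Lysine breakdown starts with Aass, the bifunctional mitochondrial enzyme that joins lysine to 2-oxoglutarate and splits the product, saccharopine (NCBI gene 30956, chromosome 6, 23072173 to 23132986, GRCm38.p6). Aass had 1676, 2119 and 1469.6 CPM in the Pak4_KO libraries, against 1146, 1054 and 1082 CPM in the WT libraries. The groups did not overlap, Pak4_KO replicate 2 stood highest, and the WT libraries lay close together (SD 4.30% of the mean, against 18.9% in Pak4_KO). On the log2 scale Aass stood 0.68 higher in Pak4_KO (SE 0.17, 95% interval 0.29 to 1.07), without passing the test over all genes (edgeR adjusted p = 0.233). It was 0.52 without Pak4_KO replicate 2 and 0.79 without Pak4_KO replicate 3, the lowest and highest values when 1 library was left out.

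Of the other 9 tested genes of lysine breakdown, 0 were called, 6 had a positive log2 fold change and the median was 0.23, beside a median of 0.0045 over all tested genes. Acat1, the mitochondrial acetoacetyl-CoA thiolase at the end of the path, had 239, 236 and 247 CPM in Pak4_KO, against 188, 157 and 227 CPM in WT (log2 fold change 0.33, SE 0.15, edgeR adjusted p = 0.641). Dlst, the succinyltransferase that the 2-oxoadipate and 2-oxoglutarate dehydrogenases share, had 220.0, 209 and 209.6 CPM in Pak4_KO, against 179, 184 and 179.9 CPM in WT (0.23, SE 0.11, adjusted p = 0.653). Both had no overlap between the genotypes.

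Got1, the cytosolic aspartate aminotransferase, converts aspartate and 2-oxoglutarate to oxaloacetate and glutamate and also serves the malate-aspartate shuttle (NCBI gene 14718, chromosome 19, 43499752 to 43524605). Got1 had 949, 1038 and 805 CPM in the Pak4_KO libraries, against 706, 696 and 638 CPM in the WT libraries. All Pak4_KO libraries were above all WT libraries, with Pak4_KO replicate 3 nearest to WT. On the log2 scale Got1 stood at 0.45 (SE 0.15, 95% interval 0.12 to 0.79), which did not pass (edgeR adjusted p = 0.397). Its mitochondrial counterpart Got2, which falls outside the naming rule and was picked with its values known, stood at -0.067 on that scale (SE 0.14, edgeR adjusted p = 0.955).

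Gpt, the alanine aminotransferase that makes pyruvate from alanine (NCBI gene 76282, chromosome 15, 76696726 to 76699675), had 166, 151 and 149 CPM in the Pak4_KO libraries, against 169, 226 and 176 CPM in the WT libraries. The groups did not overlap, but Pak4_KO replicate 1 and WT replicate 1 lay almost together, and WT replicate 2 stood above the rest. For Gpt the log2 fold change was -0.29 (SE 0.15, edgeR adjusted p = 0.670), and its 95% interval on the log2 scale, -0.63 to 0.045, includes 0. Without WT replicate 2 it was -0.15. In TPM the genotypes overlapped for Gpt, with 160.1, 140.0 and 154 TPM in Pak4_KO, against 161, 204 and 159 TPM in WT. The mitochondrial alanine aminotransferase Gpt2, picked in the same way, had 695, 911 and 1273 CPM in Pak4_KO, against 629.8, 660.4 and 895 CPM in WT, with overlap (log2 fold change 0.40, SE 0.24, edgeR adjusted p = 0.744). The TPM ratio of Got1 to Gpt, chosen after their values were seen and so not tested, was 4.97, 5.96 and 4.70 in the Pak4_KO libraries, against 3.64, 2.67 and 3.15 in the WT libraries, and did not overlap.

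Among the other 14 tested aminotransferase and glutamate genes, 0 were called, with 4 positive and 10 negative log2 fold changes and a median of -0.13. Bcat2, which takes the amino group from branched-chain amino acids, stood at 4.76 ± 1.29 CPM in Pak4_KO and 3.08 ± 0.746 CPM in WT (SD, n = 3 each; log2 fold change 0.63, edgeR adjusted p = 0.602). Psat1, the aminotransferase of serine synthesis, stood at 1.92 ± 1.44 CPM in Pak4_KO and 4.77 ± 2.34 CPM in WT (-1.31, adjusted p = 0.608). Both overlapped between the genotypes.

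**Figure D2:**
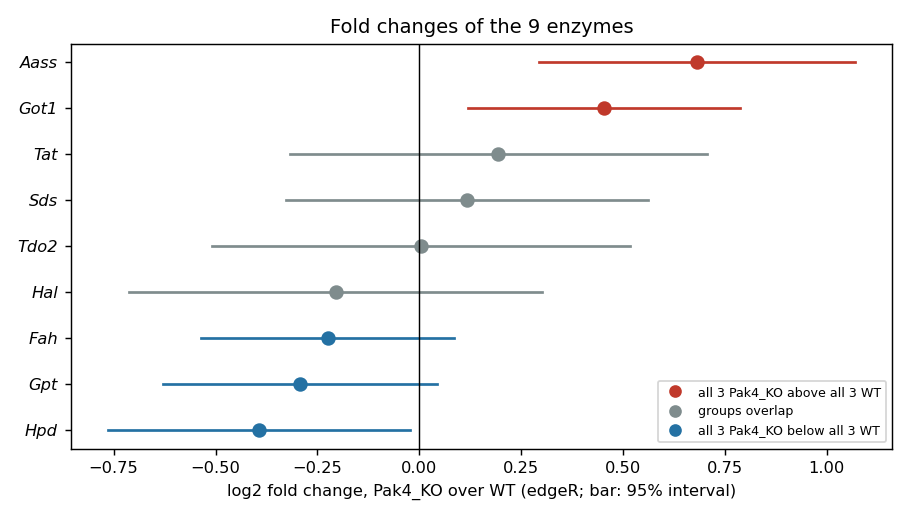
Log2 fold change of each enzyme, Pak4_KO over WT, from edgeR, with its 95% interval as a bar and colour for whether the 3 Pak4_KO and 3 WT libraries overlap. Aass (0.68) and Got1 (0.45) lie right of 0 and Hpd (-0.39) left of it with their intervals, and the intervals of the other 6 include 0.

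Tyrosine breakdown begins with Tat, which removes the amino group and is its rate-limiting step (NCBI gene 234724, chromosome 8, 109986078 to 109999804). Tat had 4779, 4101 and 2922 CPM in the Pak4_KO libraries, against 3386, 2842 and 4087 CPM in the WT libraries. The groups overlapped, with Pak4_KO replicate 3 near the lowest WT library. For Tat the log2 fold change was 0.19 (SE 0.22, edgeR adjusted p = 0.907), and its 95% interval, -0.32 to 0.71 on the log2 scale, spans changes in both directions. It was 0.031 without Pak4_KO replicate 1, 0.074 without WT replicate 2, 0.34 without WT replicate 3 and 0.37 without Pak4_KO replicate 3.

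Hpd, the dioxygenase that turns 4-hydroxyphenylpyruvate into homogentisate (NCBI gene 15445, chromosome 5, 123171807 to 123182723), had 999, 843 and 937 CPM in the Pak4_KO libraries, against 1044, 1425 and 1183 CPM in the WT libraries. Each Pak4_KO library was below each WT library, with WT replicate 2 highest. Its log2 fold change was -0.39 (SE 0.16, edgeR adjusted p = 0.573), with a 95% interval of -0.76 to -0.023. It was -0.27 without WT replicate 2 and -0.50 without WT replicate 1.

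Fah, the hydrolase that ends the path by splitting fumarylacetoacetate (NCBI gene 14085, chromosome 7, 84585159 to 84605942), lies 56.0 Mb from Pak4 on the same chromosome. It had 293, 268 and 244 CPM in the Pak4_KO libraries, against 296, 348 and 297 CPM in the WT libraries. These did not overlap, though Pak4_KO replicate 1 and WT replicates 1 and 3 were close together, and in TPM they overlapped (319, 280.1 and 285 TPM in Pak4_KO, against 319, 353 and 303 TPM in WT). Fah had a fold change of -0.23 on the log2 scale (SE 0.14, edgeR adjusted p = 0.741), and of -0.14 without WT replicate 2.

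Of the 7 other tested genes of phenylalanine and tyrosine metabolism, 0 were called and 0 had genotypes that did not overlap, with a median log2 fold change of -0.048. Gstz1, the isomerase between homogentisate oxidation and Fah, stood at 280.3 ± 26.5 CPM in Pak4_KO and 340.1 ± 44.3 CPM in WT (SD, n = 3 each; log2 fold change -0.28, edgeR adjusted p = 0.690). Gchfr, the feedback protein of tetrahydrobiopterin synthesis, stood at 26.4 ± 3.75 CPM in Pak4_KO and 31.7 ± 3.31 CPM in WT (-0.26, adjusted p = 0.732). The TPM ratio of Tat to Hpd, chosen after their values were seen and not tested, was 2.11, 2.13 and 1.37 in the Pak4_KO libraries, against 1.43, 0.884 and 1.52 in the WT libraries, with overlap through Pak4_KO replicate 3.

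Tdo2, the heme dioxygenase that opens the indole ring of tryptophan and starts the kynurenine pathway (NCBI gene 56720, chromosome 3, 81958412 to 81975728), had 1348, 1798 and 1509.5 CPM in the Pak4_KO libraries, against 1147, 1473 and 2021 CPM in the WT libraries. The Pak4_KO values lay inside the WT range. Its log2 fold change came to 0.0043 (SE 0.22, edgeR adjusted p = 0.999), with a 95% interval of -0.51 to 0.52, and its sign turned with DESeq2 size factors, the DESeq2 Wald test or a library left out.

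Of the other 11 tested tryptophan genes, edgeR called 0. Their median log2 fold change was -0.11 and 9 were negative, beside 7983 of 16197 over all tested genes, with 6 negative when Pak4_KO replicate 3 or WT replicate 2 was left out. Afmid, the formamidase that acts directly after Tdo2, had 42.1, 29.3 and 41.4 CPM in Pak4_KO, against 65.03, 58.7 and 75.4 CPM in WT. The genotypes did not overlap (log2 fold change -0.82, SE 0.17, edgeR adjusted p = 0.134), and DESeq2's Wald test called it. Haao, the dioxygenase that leads toward quinolinate and NAD, had 212, 193 and 173 CPM in Pak4_KO, against 226, 275 and 244 CPM in WT, also without overlap (-0.37, SE 0.14, edgeR adjusted p = 0.517).

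Hal, which deaminates histidine to urocanate (NCBI gene 15109, chromosome 10, 93488768 to 93516761), had 182, 143 and 98.5 CPM in the Pak4_KO libraries, against 147, 189.9 and 151 CPM in the WT libraries. Pak4_KO replicate 3 was the lowest and WT replicate 2 the highest, and the groups overlapped. The log2 fold change was -0.20 (SE 0.22, edgeR adjusted p = 0.897), with a 95% interval of -0.71 to 0.30; it was -0.0033 without Pak4_KO replicate 3, -0.078 without WT replicate 2 and -0.43 without Pak4_KO replicate 1. Of the 4 other histidine genes, 0 were called and 3 were negative. Hdc, which makes histamine, stood at 8.90 ± 0.516 CPM in Pak4_KO and 10.6 ± 0.5100 CPM in WT (SD, n = 3 each; log2 fold change -0.26, edgeR adjusted p = 0.720), without overlap. Ftcd, which passes the histidine carbon to folate, stood at 201 ± 26.7 CPM in Pak4_KO and 241 ± 27.9 CPM in WT (-0.26, adjusted p = 0.724), with overlap.

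Sds, which turns serine into pyruvate and ammonia (NCBI gene 231691, chromosome 5, 120476547 to 120483932), had 534, 592 and 364 CPM in the Pak4_KO libraries, against 493, 409 and 471 CPM in the WT libraries. Pak4_KO held both the highest values and the lowest, so the groups overlapped. The log2 fold change was 0.12 (SE 0.19, edgeR adjusted p = 0.947), with a 95% interval of -0.33 to 0.56. It was -0.027 without Pak4_KO replicate 2, 0.042 without WT replicate 2, 0.063 without Pak4_KO replicate 1 and 0.30 without Pak4_KO replicate 3. Among the other 15 tested genes of serine, glycine and threonine, 0 were called, with 4 positive and 11 negative values and a median of -0.17. Gldc, the decarboxylase of the glycine cleavage system, stood at 71.2 ± 10.8 CPM in Pak4_KO and 102 ± 15.6 CPM in WT (SD, n = 3 each; log2 fold change -0.51, edgeR adjusted p = 0.382). Gnmt, which methylates glycine, stood at 839 ± 57.5 CPM in Pak4_KO and 1080.1 ± 59.3 CPM in WT (-0.36, adjusted p = 0.500). Neither overlapped between the genotypes.

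**Figure D3:**
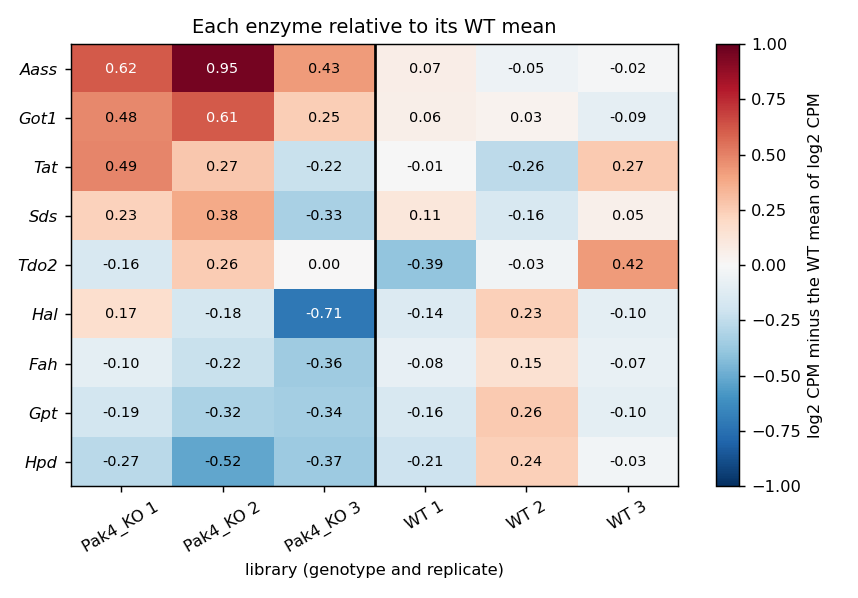
Log2 CPM of each enzyme in each library minus its mean log2 CPM over the WT libraries, with Pak4_KO libraries at the left and enzymes ordered by hand. Aass and Got1 are positive in each Pak4_KO library (0.25 to 0.95), Hpd, Gpt and Fah are negative in each (-0.52 to -0.10), and among the Pak4_KO libraries Tat, Sds and Hal are lowest in replicate 3.

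The enzymes varied unevenly among replicates. In Pak4_KO, the SD was 5.90% of the mean for Gpt and 29.5% for Hal, the lowest and highest of the 9. In WT, it was 4.30% for Aass and 28.6% for Tdo2. The fewest reads behind a value were 4922, for Hal in Pak4_KO replicate 3. Counting error alone would give an SD of 1.43% there if each read is an independent count. It would be somewhat more if the reads of a pair were counted separately. Replicate spread and not read number therefore set the precision of these values. Tat, Hal and Sds had their lowest Pak4_KO value in replicate 3, as did Aass, Got1, Fah and Gpt, and that library had a TMM factor of 1.08, against 0.958 to 1.00 in the other 5. In TPM, replicate 3 was the lowest Pak4_KO library for 5 of these 7, the exceptions being Fah and Gpt.

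Counting all 9, the genotypes did not overlap for 5 (55.6%), 2 of them higher and 3 lower in Pak4_KO. Over all tested genes the share was 13.4% (7.35% higher and 6.06% lower), and over the 1293 genes with at least 100 CPM on average, a threshold chosen after the data were seen that all 9 enzymes pass, it was 18.4%. In TPM the count was 3 (Aass, Got1 and Hpd). The median log2 fold change of the 9 was 0.0043, that of Tdo2, beside 0.0045 over all tested genes, and the values ran from -0.39 to 0.68.

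Over all pathways of amino acid breakdown, 97 further genes were tested and 0 were called, with 31 positive and 66 negative log2 fold changes and a median of -0.067. Over all tested genes 8214 were positive and 7983 negative. Of the 97, 7 had all Pak4_KO libraries above all WT libraries and 15 had them below, 22.7% together. The share was 13.4% over all tested genes and 18.4% over those with at least 100 CPM on average. At an unadjusted p under 0.05 there were 6 higher and 10 lower of the 97, 16.5% together, against 8.21% of all tested genes. By pathway that was 5 of methionine and cysteine, 4 of branched-chain amino acids, 3 of proline, arginine, ornithine and glutamine, 2 each of tryptophan, of serine, glycine and threonine and of the aminotransferases, and 0 of tyrosine, histidine and lysine, with 2 genes counted on more than 1 list. DESeq2's Wald test called 3 of the 97, Afmid, Bckdk and Prodh.

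Branched-chain amino acid genes had 10 positive and 13 negative values among 23 tested and a median of -0.0078. The split moved both ways with 1 library left out. It was 4 positive and 19 negative without Pak4_KO replicate 1 or without WT replicate 1. It was 15 positive and 8 negative without Pak4_KO replicate 3, and 12 and 11 without WT replicate 2 or without WT replicate 3. Bckdk, the kinase that switches off the branched-chain ketoacid dehydrogenase, had 6.72, 7.66 and 7.70 CPM in Pak4_KO, against 4.795, 4.78 and 4.51 CPM in WT, without overlap (log2 fold change 0.65, SE 0.16, edgeR adjusted p = 0.243).

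Among the other 15 tested genes of methionine and cysteine, 4 were positive and 11 negative, with a median of -0.16. Bhmt, which remethylates homocysteine with betaine, had 2521, 1539 and 1227 CPM in Pak4_KO, against 3508, 2905 and 2965 CPM in WT, without overlap (log2 fold change -0.83, SE 0.26, edgeR adjusted p = 0.382). Csad, the decarboxylase of taurine synthesis, had 132, 209 and 339 CPM in Pak4_KO, against 137, 35.8 and 88.9 CPM in WT, with overlap (1.38, SE 0.48, adjusted p = 0.468).

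Genes of proline, arginine, ornithine and glutamine had 1 positive and 9 negative values among 10 tested, with a median of -0.21. Prodh, the dehydrogenase that starts proline breakdown, had 94.1, 84.1 and 88.6 CPM in Pak4_KO, against 136, 181 and 115 CPM in WT, without overlap (log2 fold change -0.70, SE 0.18, edgeR adjusted p = 0.243). Aspg, an asparaginase, was the positive one, at 209 ± 30.2 CPM in Pak4_KO and 152 ± 22.1 CPM in WT (SD, n = 3 each; 0.46, adjusted p = 0.473), without overlap.

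**Figure D4:**
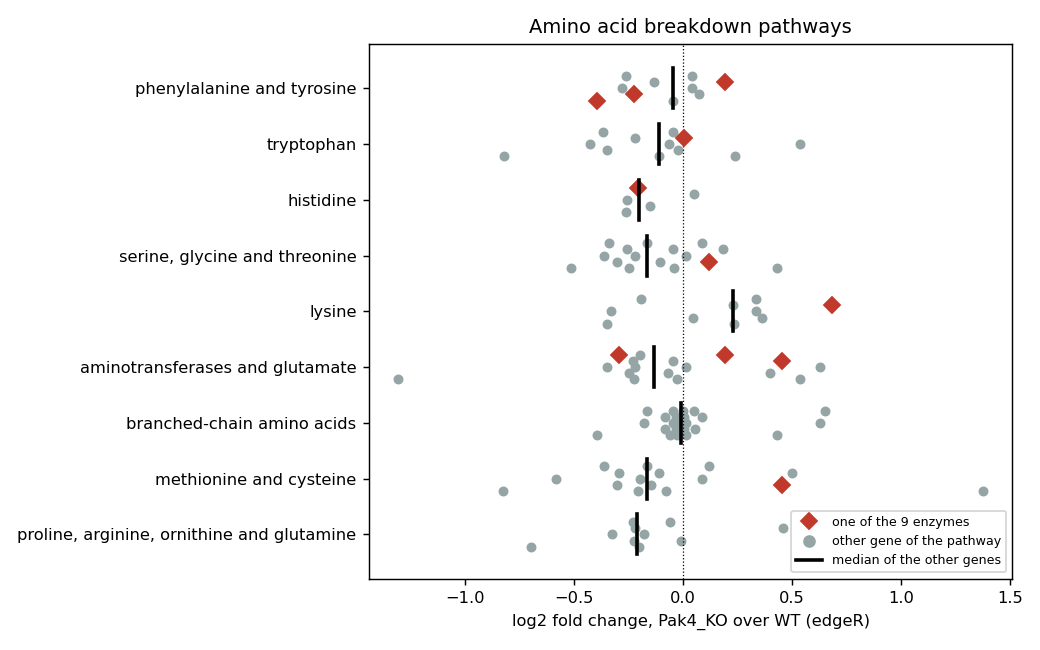
Log2 fold changes, Pak4_KO over WT, of all tested genes in each amino acid breakdown pathway, with the 9 enzymes as diamonds, other genes as circles (shifted vertically so that they can be seen) and the median of the other genes as a black line. Medians run from -0.21 (proline, arginine, ornithine and glutamine) to 0.23 (lysine), edgeR called no gene shown, and DESeq2's Wald test called Aass, Afmid, Bckdk and Prodh.

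The regulators and hormone targets that bear on these enzymes gave 0 genes called by edgeR. At an unadjusted p under 0.05 there were 3 regulators (13.6%), 1 glucocorticoid target (7.14%) and 6 glucagon, cAMP and fasting targets (46.2%), against 8.21% of all tested genes, with Irs2 counted on 2 of the lists. DESeq2's Wald test called Irs2 and Foxa3. Among 22 regulators, 11 were positive and 11 negative, with a median of 0.023. Irs2, an adaptor of insulin signalling that fasting induces, stood at 79.0 ± 27.4 CPM in Pak4_KO and 35.3 ± 11.2 CPM in WT (SD, n = 3 each; log2 fold change 1.16, SE 0.29, edgeR adjusted p = 0.243), and Foxa3, a liver forkhead factor, at 17.1 ± 3.01 CPM in Pak4_KO and 28.1 ± 4.41 CPM in WT (-0.72, SE 0.18, adjusted p = 0.235). Neither overlapped. Glucocorticoid targets had a median of -0.033 with 10 of 14 negative, Lcn2 standing at -0.43 (SE 0.18, adjusted p = 0.586) and Tsc22d3 at -0.58 (SE 0.26, adjusted p = 0.617). There were 6 negative with a median of 0.0018 without Pak4_KO replicate 3, and 10 negative without Pak4_KO replicate 1, chosen after the data were seen. Glucagon, cAMP and fasting targets had a median of 0.58, the value of Pck1, with 10 of 13 positive. Their median was 0.29 without Pak4_KO replicate 1 and 0.95 without WT replicate 2, in a comparison chosen after the data were seen. Pak4_KO replicate 1 stood well above the other Pak4_KO libraries for several of them, such as Igfbp1, a fasting-induced binding protein, with 1817.5 CPM there and 425 and 222 CPM in the other Pak4_KO libraries, against 228, 103 and 338 CPM in WT. Nr4a1, a nuclear receptor that cAMP induces, was lower in each Pak4_KO library (1.56, 1.14 and 0.980 CPM) than in each WT library (2.78, 2.69 and 1.85 CPM), at -0.99 on the log2 scale with an SE of 0.29 (edgeR adjusted p = 0.332). Igfbp1 and Nr4a1 were picked with their values known. Pdk4, which restrains glucose oxidation, stood at 658 ± 238 CPM in Pak4_KO and 142 ± 136 CPM in WT (2.21, SE 0.63, adjusted p = 0.308).

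For each enzyme, the 2 protein-coding genes most like it were found by Pearson correlation of log2 CPM over the 6 libraries, among 7087 candidates of at least 10 CPM, as a description of 6 points that share genotype and library. Aass was most like Phb2, a mitochondrial prohibitin (0.977), and Got1 (0.976). Got1 was most like Pdhb, a subunit of pyruvate dehydrogenase (0.998), and Hip1r (0.981). Gpt was most like 2 genes of the lists above, Glud1, the glutamate dehydrogenase (0.996), and Qprt, which acts late in the kynurenine pathway to NAD (0.993). Hpd was most like Hnmt (0.990) and Rnf144b (0.989), and Fah like Phyhd1 (0.996) and Pxmp2 (0.992). Tat was most like Itfg1 (0.969) and Rapgef5 (0.968), Tdo2 like Nup88 (0.998) and Mfsd8 (0.987), Hal like Rnaset2b (0.999) and Tpst1 (0.994), and Sds like Vps33a (0.981) and Eprs (0.976). None of these genes was called between the genotypes, with edgeR adjusted p from 0.255 for Rnf144b to 0.999 for Nup88.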

How the data were processed

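The authors deposited 1 table with whole-number read counts per gene, not normalized, per the file headers. It also holds deposited FPKM (scaled by gene length and library total), not used here, and deposited TPM (scaled by length to a fixed total), used for levels between genes and in alternatives. Tools in the submitters' processing notes, given without their roles, were HISAT2 2.1.0 and Bowtie2 2.3.4.1, beside StringTie 2.1.3b, bcl2fastq 2.20.0 and FastQC 0.11.7, with build mm10. How strand and multi-mapping reads were handled is not given in the sources used here. RNA was extracted with Trizol from liver kept in RNAlater, and libraries came from a stranded mRNA kit, per the labels' protocols. In each library more genes had 2 reads than 1 read, so a read pair may count as 2.

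Counts were fitted with edgeR 4.0.16 (R 4.3.3): filterByExpr by group, TMM factors, quasi-likelihood F-test over 6 libraries, two-sided, p-values Benjamini-Hochberg adjusted over all 16197 tested genes, called under 0.05. SE is the absolute log2 fold change over the square root of F, and 95% intervals use the t quantile of the fit. The procedure was tested in 3 simulations of 16197 genes, with 200 changed genes in each. It recovered 5.47% of 1.5-fold, 35.3% of 2-fold and 78.3% of 4-fold changes, and 7.78% of its calls were false. Changes of about 1.5-fold would therefore mostly go uncalled. No replicate pair agreed within sampling noise (chi-square per gene 66.1 to 133). The enzymes and gene lists were chosen with earlier results of these data known. Named from each list are up to 4 called genes, or the 2 with the smallest p, and the 2 genes most like each enzyme. 1 result that the rule would name is not reported here. Coordinates and promoters are from RefSeq GRCm38.p6, the build also called mm10; promoters were in the table for 7 of 9 enzymes. Alternatives used DESeq2 1.42.0 and limma 3.58.1, other scalings and filters, TPM, a block for the replicate number, and 1 library left out at a time.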

Additional observations from a re-analysis of the deposited data

How the results depend on the processing

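The count of enzymes called stayed at 0 under each alternative other than DESeq2's Wald test, which called 1 (Aass; edgeR, limma-voom and TPM alternatives gave Aass adjusted p from 0.0789 to 0.525). That test also called 3 of the related breakdown genes, against 0 otherwise, and 334 genes in all, against 76. A minimum of 10 reads in every library gave 44 called genes, and leaving out 1 library gave 37 to 81 (38 without Pak4_KO replicate 2, 37 without Pak4_KO replicate 3, 44 without WT replicate 1, 46 without WT replicate 2). Log2 fold changes of Aass, Got1, Tat, Hpd, Fah, Gpt and Hal kept their sign in all 17 alternatives. Tdo2 turned to -0.0038 with DESeq2 size factors and with the Wald test, and ran from -0.18 to 0.25 with 1 library left out; Sds ran from -0.027 to 0.30. The count of enzymes without overlap was 5 with TMM factors and with DESeq2 size factors. It was 4 with upper quartile factors or library size only, 3 in TPM, and 5 or 6 with 1 library left out. Deviations of same-numbered libraries from their group means had correlations of 0.067, -0.20 and 0.15, and not every library matched its own number best. With 3 libraries a group, these correlations cannot decide whether same-numbered libraries were paired, and the labels do not say what the number means. The replicate block gave 73 called genes, 0 of them members. Pathway medians with 1 library left out, an alternative chosen after seeing the data, ran from -0.22 to 0.014 for phenylalanine and tyrosine, -0.28 to -0.064 for tryptophan and -0.31 to -0.034 for serine, glycine and threonine (lowest without Pak4_KO replicate 1, or WT replicate 1 for tryptophan; highest without Pak4_KO replicate 3, or WT replicate 2 for tryptophan). The lysine median was 0.14 without Pak4_KO replicate 3, and that of the aminotransferases -0.27 without Pak4_KO replicate 1. With 3 libraries a group, an adjusted p that misses the threshold does not show equal levels.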

Other observations

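Genes next to amino acid breakdown in liver metabolism gave 0 calls by edgeR and by DESeq2, with 2 transporters (12.5%), 1 gluconeogenesis (9.09%), 1 periportal (7.14%) and 4 pericentral genes (28.6%) at an unadjusted edgeR p under 0.05, against 8.21% of all tested genes. Slc1a2 is counted on both the transporter and the pericentral list. Among 16 tested amino acid transporters, 10 had a positive log2 fold change and the median was 0.025. Slc16a10, which carries aromatic amino acids, stood at 255 ± 10.2 CPM in Pak4_KO and 207 ± 21.4 CPM in WT (SD, n = 3 each; log2 fold change 0.30, edgeR adjusted p = 0.597), without overlap. Slc1a2, the glutamate transporter of hepatocytes around the central vein, stood at 235 ± 43.0 CPM in Pak4_KO and 173 ± 24.2 CPM in WT (0.44, adjusted p = 0.541), with overlap. Of 11 gluconeogenesis genes 7 were positive, with a median of 0.15. Pck2, the mitochondrial PEP carboxykinase, stood at 2.68 ± 0.171 CPM in Pak4_KO and 1.40 ± 0.322 CPM in WT (0.94, adjusted p = 0.275), without overlap. Pck1, the cytosolic one, had 2242, 1019 and 941 CPM in Pak4_KO, against 917, 1347 and 541 CPM in WT (0.58, adjusted p = 0.800). These overlapped, with Pak4_KO replicate 1 far above the other Pak4_KO libraries.

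The zonation lists had medians of 0.00015 for 14 periportal and -0.29 for 14 pericentral genes. Of the periportal genes 7 were positive and 7 negative, and Etnppl, a phospholyase, stood at 160.3 ± 6.90 CPM in Pak4_KO and 94.5 ± 29.6 CPM in WT (SD, n = 3 each; log2 fold change 0.76, edgeR adjusted p = 0.301), with Hsd17b13 at 0.28 (adjusted p = 0.670). Of the pericentral genes 13 were negative, among them Slc13a3 at -0.76 (adjusted p = 0.480), and Slc1a2 was the positive one. Without Pak4_KO replicate 3 there were 10 negative and 4 positive. In 0 of the 14 pericentral genes were the genotypes without overlap, against 13.4% of all tested genes.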
